A study of Homo sapiens with 22 samples.

Results

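The second interval of an actinomycin D time course in LS180 cells was examined, from 2 h to 4 h after the compound was added, to describe which transcripts fell in it and which fell in it alone. LS180 is a human colorectal adenocarcinoma line that makes mucins. The members are the 6 total RNA libraries whose titles give LS180 with 2 h or 4 h of actinomycin D, chosen by title among 22 libraries in the series. The series as a whole is built around FOXA1, a transcription factor, and the RNA-binding protein Staufen1. The dose of actinomycin D, which intercalates into DNA and stops transcription, was 5 µg/ml, and cells were taken at 0, 2 or 4 h, with n = 3 libraries per group. The 3 LS180 libraries at 0 h served to describe the first interval, and 6 libraries of HCT116, a colorectal carcinoma line, at 2 h and 4 h of the same dose served as a comparison. No group carries an engineered allele according to the labels, and the 0 h group is named only by its time. Whether the replicates were grown as separate cultures is not stated in the labels. The p-values therefore reflect only how much these libraries vary, which may be technical.

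When transcription is blocked, the level of an mRNA is left to its decay. Decay of most mRNAs begins with removal of the poly(A) tail by deadenylases such as the CCR4-NOT complex, followed by removal of the cap and digestion from the 5′ end, or by digestion from the 3′ end by the exosome. Messages of growth-response genes often carry AU-rich elements in the 3′ UTR that proteins of the ZFP36 family bind to speed deadenylation, while mRNAs of ribosomal proteins and of the respiratory chain are known as long-lived.

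Sequences of 25 bases around the AU-rich nonamer ttatttatt show what the element looks like in 5 named genes that fell. It was found in 6 of the 62 named lower genes with a transcript, 2 of the 9 such genes among the 10 largest falls and 0 of 10 named late-only genes. They were read 5′ to 3′ on the transcript strand from the GENCODE 29 transcripts (GRCh38), with the nonamer in capitals. Only the sense strand was searched, and the first match per 3′ UTR is shown.

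PHLDA1: atttatgaTTATTTATTagtttttt
KLF5: gtttatctTTATTTATTttgtggta
SOX9: tgctaaaaTTATTTATTttgtaagg
FOSL2: ttattttaTTATTTATTttaaatgt
ZFP36L2: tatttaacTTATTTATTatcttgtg

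The match starts at base 314 of a 3′ UTR of 4672 bases in PHLDA1, a growth-response gene on chromosome 12, and at base 1301 of 1656 in KLF5, a transcription factor of proliferating intestinal epithelium on chromosome 13. In SOX9 on chromosome 17, FOSL2 on chromosome 2 and ZFP36L2 on chromosome 2 it starts at bases 1121, 3917 and 853. A match is a description of the letters and does not show that the element acts in these cells.

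Levels are in CPM, the counts of a gene per 1e6 counts of its library after TMM scaling. Once transcription is blocked, a CPM value is a share of what is left, so a higher value does not show synthesis and a lower value is not an absolute loss. In these bulk samples fewer cells and less RNA per cell cannot be told apart. The 6 libraries held 52.25 to 60.25 M counts (1 M is 1e6). Of 14 markers listed for the line, AGR2, KRT8, KRT18 and EPCAM were the highest, at a lowest level of 745 CPM or more in these 6 libraries. The mucin MUC2 had 2.93 to 5.67 CPM, and 1 of the 14 markers, KRT20, was under 1 CPM in all 6 libraries. The summed level of the line markers was 5440 to 5640 CPM at 2 h. At 4 h it was 5458 CPM in library 1 and 6352 and 6638 CPM in libraries 2 and 3. All 6 fibroblast markers were under 1 CPM, with sums of 1.14 to 1.61 CPM at 2 h and 1.07 to 1.28 CPM at 4 h, and COL1A2 was at 0 in all 6 libraries. The 3 endothelial markers in the table summed to at most 0.424 CPM, with CDH5 at 0 in 5 libraries. Of 6 immune markers 4 were under 1 CPM in all libraries and CD3E was at 0, while LYZ, which intestinal epithelial cells can also express, made up 59.8 to 80.0 CPM.

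The 3 libraries at 4 h were not alike. Library 1 at 4 h lay between the 2 h libraries and the other 4 h libraries. On the first principal component of the 9 LS180 libraries, which held 86.2% of the variance, it scored 37.9, against 55.1 and 56.9 for libraries 2 and 3 and 11.5 to 13.2 for the 2 h libraries. Its mean correlation across genes with the 2 h libraries was 0.989, against 0.982 and 0.979. Short noncoding RNAs took 17.1% of its counts, against 22.3% and 25.6% in libraries 2 and 3 and 18.1 to 21.5% at 2 h. The scaling factors followed, at 1.00 for library 1 and 0.86 and 0.81 for libraries 2 and 3. Over genes lower at 4 h, the median log2 change against the 2 h mean was -0.37 in library 1, -0.62 in library 2 and -0.64 in library 3. Library 1 was the highest of the 3 for 82.2% of these genes. Of the 87 named genes, 2 gained and 1 lost a call without library 1. With it as the sole 4 h library 23 lost theirs, in a fit with fewer libraries.

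Messages of intestinal transcription factors, Wnt pathway regulators and growth-response genes fell further between 2 h and 4 h, as did replication-dependent histone messages. Ribosomal protein and respiratory chain messages rose relative to the rest with TMM scaling. Ribosomal protein scaling holds the ribosomal protein messages near 0 by construction, so it cannot test their rise. With it 0 of 63 nuclear oxidative phosphorylation genes were higher and 4 were lower. With total library size 39 of 80 ribosomal protein genes were higher and 1 lower, and 19 of the 63 were higher and 2 lower. Of 17256 genes tested with edgeR's quasi-likelihood test, 3200 were lower at 4 h than at 2 h (18.5% of those tested) and 2106 were higher (12.2%), at a Benjamini-Hochberg adjusted p threshold of 0.05. Among them 460 fell and 56 rose at least 2-fold. The 4 h libraries lay entirely below the 2 h libraries for 3075 of the lower genes and entirely above for 1727 of the higher ones. Over all 17256 genes tested, called or not, they lay entirely below for 3972 and entirely above for 3247. Without library 1 at 4 h the test called 3596 genes lower and 2959 higher, and 3074 of the lower genes were called in both fits. With library 1 as the sole 4 h library, assumed to vary like the other groups, it called 1179 lower and 162 higher, and 1162 of the lower genes were shared with the fit of all libraries. By list, the fit with library 1 alone called 5 of 52 histone, 12 of 28 intestinal transcription factor, 6 of 40 immediate early and 6 of 40 mitosis genes lower, and 0 of 80 ribosomal protein and 0 of 63 oxidative phosphorylation genes higher. In that fit 3191 of the 3200 lower genes still had a negative log2 change.

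How many genes count as higher rested on the scaling. Scaling to total library size moved the log2 change of the median gene by -0.16 and scaling to ribosomal protein mRNAs by -0.31. The share of calls that were lower was 60.3% with TMM, 94.4% with total library size and 99.4% with ribosomal protein scaling, in which 6608 genes were lower and 41 higher. All 3200 genes lower with TMM were also called lower with ribosomal protein scaling. The shift of -0.31 made that outcome all but certain, so it is no check of these calls.

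**Figure D1:**
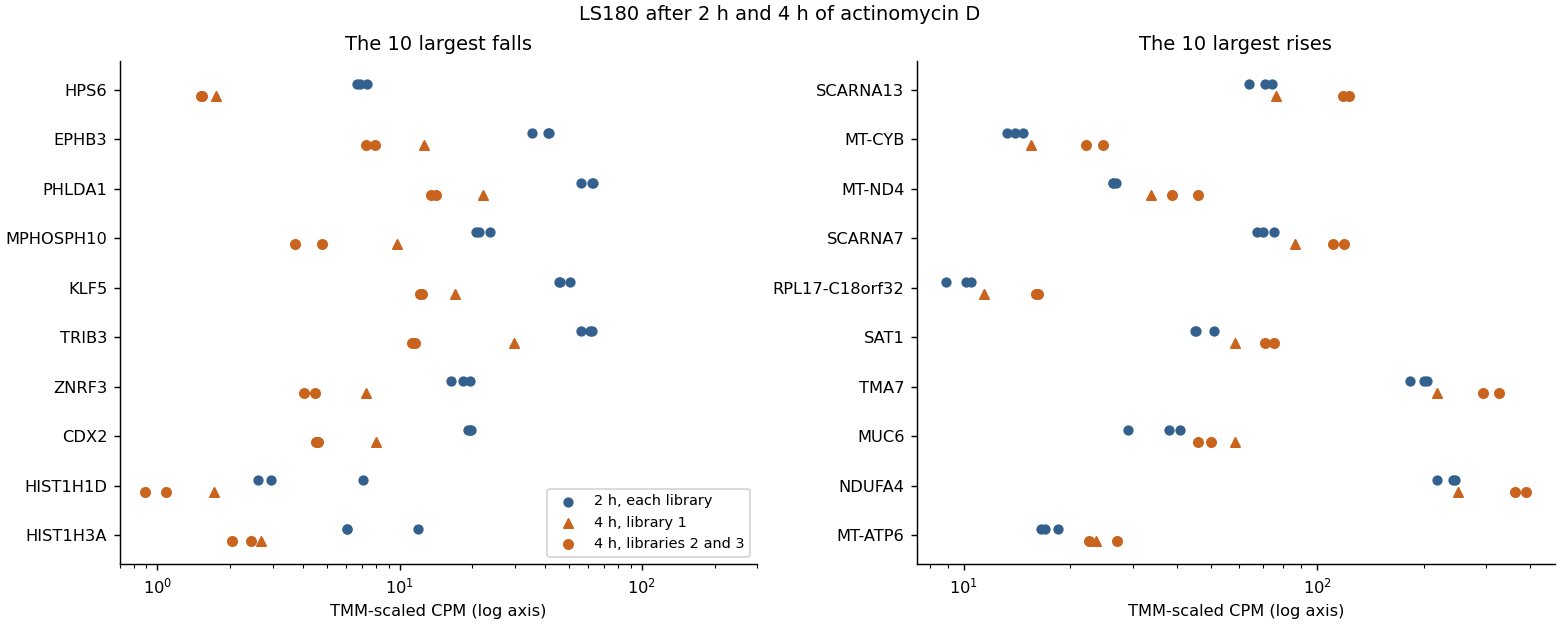
TMM-scaled CPM on a log axis in each LS180 library at 2 h (blue) and 4 h (orange, library 1 as a triangle), for the 10 largest falls (left) and the 10 largest rises (right). Library 1 is the highest of the 3 libraries at 4 h for 10 of the 10 falls and the lowest for 8 of the 10 rises.

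The largest fall was that of HPS6, a subunit of the BLOC-2 complex in the making of lysosome-related organelles (ENSG00000166189, GRCh38 chromosome 10, 102065390 to 102068038). Its level was 6.65, 7.36 and 6.84 CPM at 2 h and 1.75, 1.51 and 1.52 CPM at 4 h, which left 23.1% of the 2 h level (log2 change -2.12 ± 0.13 SE, edgeR adjusted p = 8.65e-09). EPHB3, an ephrin receptor that positions crypt cells and a Wnt target, had 35.1, 41.1 and 41.4 CPM at 2 h. At 4 h it had 12.7 CPM in library 1 and 7.91 and 7.29 CPM in the others, a log2 change of -2.07 ± 0.17 SE (edgeR adjusted p = 9.96e-08). For both genes every 4 h library lay below every 2 h library, as the rule for naming them required. MPHOSPH10, a component of the small-subunit processome in ribosome making, went from 21.9 ± 1.61 to 6.09 ± 3.26 CPM (SD, n = 3 each). Its 4 h libraries spread more, with 9.80 CPM in library 1 against 3.69 and 4.77 CPM. TRIB3, a pseudokinase induced in stress, showed the same spread, with 29.6 CPM in library 1 against 11.6 and 11.2 CPM, all below its 55.9 to 62.5 CPM at 2 h. The histone messages HIST1H1D and HIST1H3A completed the 10 largest falls with PHLDA1, KLF5, ZNRF3 and CDX2, which are described with their groups.

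Of 28 measured genes listed as FOXA and intestinal transcription factors, 18 fell and 0 rose in the second interval, with a median log2 change of -0.77 against 0.02 over all genes tested. KLF5 went from 45.4, 46.0 and 50.4 CPM to 16.9, 12.1 and 12.4 CPM, which left 29.2% (log2 change -1.77 ± 0.14 SE, edgeR adjusted p = 9.96e-08). CDX2, the homeobox factor that sets intestinal identity, had 19.2 to 19.7 CPM at 2 h. It had 7.99, 4.62 and 4.51 CPM at 4 h, a log2 change of -1.76 ± 0.14 SE. SOX9, a factor of the crypt base, fell by 1.34 and SOX4, a factor of progenitor cells, by 1.53 on the log2 scale. FOXA1, a pioneer factor that opens chromatin in endoderm-derived cells, fell from 8.42, 8.48 and 8.73 CPM to 4.54, 3.23 and 3.004 CPM (log2 change -1.25 ± 0.16 SE, edgeR adjusted p = 1.06e-05). Its groups did not overlap, and it fell under each of the 18 alternatives, by 0.77 to 1.54. FOXA3 fell by 1.28 and FOXA2 by 0.76, both from under 1.2 CPM at 2 h. With library 1 as the sole 4 h library the FOXA3 change was -1.13 (edgeR adjusted p = 0.0966). The FOXA2 call (edgeR adjusted p = 0.0233) was lost without library 1 at 2 h (0.0649), without library 3 at 2 h (0.087), without library 2 at 4 h (0.0871) and with library 1 as the sole 4 h library (0.264). STAU1, which encodes Staufen1, had 78.3 to 84.6 CPM at 2 h and 78.4 to 88.8 CPM at 4 h. Its groups overlapped and it did not pass the test (log2 change 0.05 ± 0.05 SE, edgeR adjusted p = 0.566). STAU2, its paralog, had 44.1 to 45.6 CPM and then 45.8 to 51.9 CPM (log2 change 0.15 ± 0.06 SE, edgeR adjusted p = 0.0671). STAU2 was called higher under 7 alternatives, among them DESeq2 (adjusted p = 0.026) and the fit without library 1 at 4 h (log2 change 0.21, edgeR adjusted p = 0.00659), and had -0.17 with ribosomal protein scaling.

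Of 28 Wnt and stem cell genes, 12 fell and 0 rose, with a median of -0.28. Beside EPHB3, ZNRF3, a ubiquitin ligase that removes Wnt receptors, left 29.4% of its 2 h level and ASCL2, a stem cell factor of the crypt, 38.5%. ASCL2 had 27.3 CPM in library 1 at 4 h and 15.2 and 15.5 CPM in the others, all below its 47.04 to 52.99 CPM at 2 h.

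Growth-response messages had mostly fallen before 2 h. The first and second intervals share the 2 h libraries, with opposite sign, so their counts are given side by side only, against 23.9% of all genes called lower in the first. Of 40 immediate early genes 38 were lower at 2 h than at 0 h, and 23 were lower again at 4 h than at 2 h, with a median of -0.46 in the second interval. MYC went from 249 CPM at 0 h to 8.10 ± 0.81 CPM at 2 h and 4.33 ± 0.35 CPM at 4 h (SD, n = 3), a late log2 change of -0.90. With an offset for effective length the late change of MYC was -0.22 and its call was lost (edgeR adjusted p = 0.346). BTG1, an adaptor that links targets to deadenylases, left 30.8% of its 2 h level. The AP-1 subunits FOSL2 and JUND left 48.7% and 50.2%. Of 18 genes of ERK feedback, 9 fell. PHLDA1 went from 56.3, 62.2 and 62.9 CPM to 22.2, 14.1 and 13.5 CPM, and DUSP4, a phosphatase of ERK, left 35.1%. The rises among immediate early genes were FOSB and GADD45B, chosen after their values were seen. The ERK pathway inhibitors SPRED2 and ERRFI1, the second an inhibitor of EGFR, left 67.9% and 48.3%. The SPRED2 call was lost with the offset for effective length (log2 change -0.27, edgeR adjusted p = 0.0778).

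Among growth factors and their receptors 14 of 38 fell and 1 rose, with BMP4, a secreted morphogen, at 50.0% and EFNB2, an ephrin ligand, at 32.6% of the 2 h level. Of 18 circadian clock genes 9 fell and 0 rose. CRY2, a repressor of the clock, left 55.9% and NFIL3, a repressor of its output genes, 48.7%. Of 86 KRAB zinc finger genes, transcriptional repressors that silence transposable elements, 35 fell and 2 rose in the second interval, after 80 had fallen in the first. ZNF317 and ZNF274 left 54.5% and 45.1%.

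Replication-dependent histone mRNAs, which end in a stem-loop and carry no poly(A) tail, had a median of -1.18, with 43 of 52 lower and 0 higher. HIST1H2AE had 55.9, 30.0 and 29.8 CPM at 2 h and 19.9, 13.8 and 15.7 CPM at 4 h. HIST1H4B had 23.9, 11.8 and 11.8 CPM and then 5.22, 4.34 and 4.68 CPM. Library 1 at 2 h was high for both, and the groups did not overlap. Copies of these genes are nearly identical and share reads, so their separate levels are uncertain.

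Of 40 genes of mitosis and G2, 20 fell and 2 rose in the second interval, against 10 lower and 1 higher in the first, but the difference between the intervals itself was called for 1 of the 40. CCNF, a cyclin of the SCF ubiquitin ligase, left 30.4% of its 2 h level. FAM83D, which recruits casein kinase to the spindle, left 34.9%, AURKA, a kinase of centrosomes and spindle, 48.8%, and KIF18A, a kinesin that trims spindle microtubules, 51.5%. AURKA had 44.5 to 46.2 CPM at 2 h and 20.5 to 23.7 CPM at 4 h. Among 18 genes of the BCL2 family 7 fell and 0 rose. MCL1, an inhibitor of apoptosis known for a short-lived mRNA and protein, went from 55.3, 56.5 and 58.5 CPM to 30.1, 26.1 and 25.2 CPM, while its relative BCL2L1 left 64.7% and the proapoptotic BBC3 37.2%.

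Of 34 genes of the integrated stress and unfolded protein responses, 13 fell and 5 rose, beside 18.5% and 12.2% of all genes. XBP1, a transcription factor of the unfolded protein response, had 81.7 to 84.3 CPM at 2 h and then 48.1 CPM in library 1 and 31.2 and 31.7 CPM in the others. PPP1R15B, a subunit that dephosphorylates eIF2α, left 54.2%, and the transcription factors CEBPB and CEBPG left 49.7% and 58.9%. In the list of chaperones and polyubiquitin 8 of 29 fell and 5 rose, beside 18.5% and 12.2% of all genes. The rises, chosen after their values were seen, were HSP90AA1, DNAJB6 and the mitochondrial chaperones HSPD1, HSPE1 and HSPA9. UBB, which encodes a chain of ubiquitin repeats, fell from 659, 619.5 and 598 CPM to 346, 331 and 363 CPM. Reads of such repeats can match more than 1 gene, so its level is uncertain. DNAJB1, a cochaperone of HSP70, left 39.5%.

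Genes of the decay machinery went both ways with TMM scaling, as did all genes tested. Of 52 genes of deadenylation, decapping and the exosome 18 fell and 10 rose, beside 18.5% and 12.2% of all genes, at a median of -0.03. With total library size 22 of the 52 were lower and 1 higher, and with ribosomal protein scaling 30 were lower and 0 higher. TOB2, an adaptor of the CCR4-NOT deadenylase, left 47.4% of its 2 h level, EXOSC4, an exosome subunit, 56.1%, and CNOT2, a scaffold subunit of CCR4-NOT, 63.8%. Of 20 Staufen and nonsense-mediated decay factors 4 fell and 1 rose, shares near or under the 18.5% and 12.2% of all genes. SMG8, a regulator of the kinase SMG1, left 53.2%, PNRC2, a decapping cofactor, 75.1%, and PNRC1 56.1%. The PNRC1 call was lost without library 2 (edgeR adjusted p = 0.0564) or library 3 (0.0504) at 4 h. SMG1 had 50.2 to 55.1 CPM at 2 h and 74.6 CPM in library 1 at 4 h, against 58.0 and 57.4 CPM in the others (log2 change 0.29 ± 0.08 SE, edgeR adjusted p = 0.0135). Its call was lost without library 1 at 4 h (log2 change 0.16, edgeR adjusted p = 0.0681) and without library 1 (0.052) or library 2 (0.0509) at 2 h. With ribosomal protein scaling its change was -0.00463. Of 20 AU-rich element binding proteins 2 fell and 4 rose (AUH, PCBP2, RC3H1 and TIA1, chosen after their values were seen), beside 18.5% and 12.2% of all genes. ZFP36L2, a decay-promoting zinc finger protein, was at 60.5% of its 2 h level.

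Messages of ribosomal proteins rose relative to the rest, 77 of 80 with 0 lower, at a median of 0.33. RPL31 went from 817, 766 and 709.8 CPM to 869.8 CPM in library 1 and 1092 and 1160.0 CPM in the others. RPS27 went from 925, 890.0 and 857 CPM to 987, 1189 and 1232 CPM. The ribosomal protein median was 0.08 in library 1, 0.39 in library 2 and 0.50 in library 3, and with total library size 39 of the 80 were higher and 1 lower. Nuclear genes of oxidative phosphorylation rose in 53 of 63 cases and fell in 1, at a median of 0.30. NDUFV3, a complex I subunit, was that fall, at 70.3%, while NDUFB2 and NDUFA4 rose 1.33-fold and 1.42-fold. With ribosomal protein scaling 0 of the 63 were higher, 4 were lower and the median was -0.04. Of 13 mitochondrially encoded mRNAs, which a separate polymerase transcribes, 5 rose and 1 fell, MT-ND6, the mRNA of the light strand, chosen after its values were seen. MT-CYB, MT-ND4 and MT-ATP6 rose 1.42-fold to 1.49-fold. The MT-ND4 call (edgeR adjusted p = 0.0266) was lost without any single 2 h library (0.0601, 0.0572 and 0.0721 for libraries 1 to 3) and without library 2 (0.147) or library 3 (0.0668) at 4 h. MT-CYB had 13.2 to 14.7 CPM at 2 h and 15.5, 24.8 and 22.1 CPM at 4 h. With ribosomal protein scaling 0 of the 13 were higher and 1 was lower. Nuclear copies of mitochondrial sequence can share their reads.

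Secretory pathway genes rose in 24 of 43 cases and fell in 2. SSR1, a subunit of the translocon-associated complex, rose 1.19-fold, and SEC24B, a coat protein of transport vesicles, left 58.1%. With ribosomal protein scaling the change of SSR1 was -0.068, and 0 of the 43 were higher and 11 lower, at a median of -0.15. With total library size 3 of the 43 were higher and 3 lower. Goblet cell products rose in 6 of 27 cases and fell in 0, beside 12.2% and 18.5% of all genes. MUC6, a gel-forming mucin, had 29.2, 38.1 and 41.0 CPM at 2 h and 58.4 CPM in library 1 and 49.9 and 45.8 CPM in the others at 4 h, and the trefoil peptide TFF3 rose 1.29-fold. With either total library size or ribosomal protein scaling 0 of the 27 were higher. SAT1, an enzyme of polyamine breakdown, rose 1.45-fold and TMA7, a small protein linked to translation, 1.42-fold. RPL17-C18orf32 rose 1.47-fold, but it is a read-through of RPL17 and shares its exons.

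**Figure D2:**
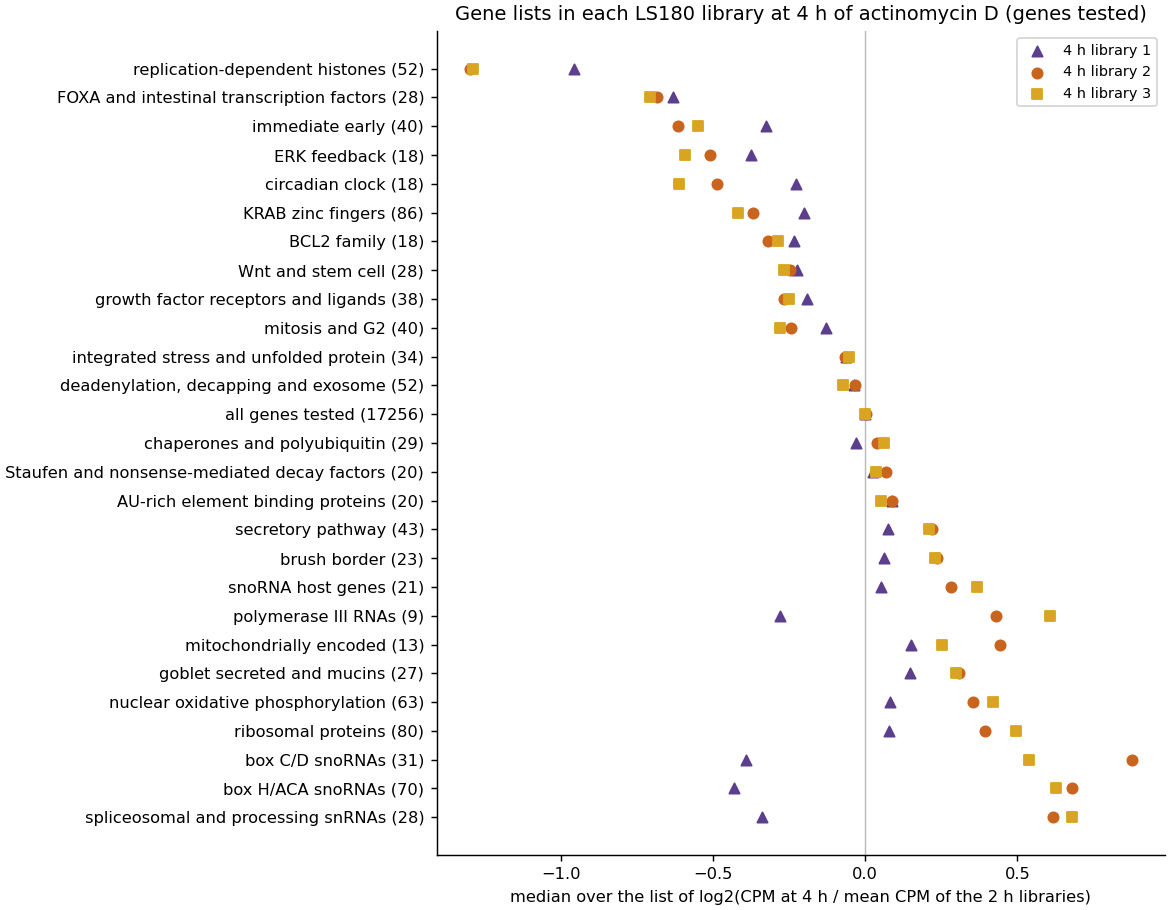
Median over each gene list of log2(CPM in a 4 h library / mean CPM at 2 h), for each of the 3 LS180 libraries at 4 h; the number of genes tested is in parentheses. Histone and transcription factor lists lie below 0 in all 3 libraries, while the polymerase III, snRNA and snoRNA lists are below 0 in library 1 and above 0 in libraries 2 and 3.

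The direction of short noncoding RNAs differed between the 4 h libraries. For 70 box H/ACA snoRNAs, guides of pseudouridylation, the median change was -0.43 in library 1 and 0.68 and 0.63 in libraries 2 and 3. For 31 box C/D snoRNAs, guides of ribose methylation, it was -0.39, 0.87 and 0.54. For 28 spliceosomal and processing RNAs it was -0.34, 0.62 and 0.68. With all libraries 6, 2 and 6 members of these lists were called higher and 0 lower, beside 12.2% and 18.5% of all genes. Without library 1 at 4 h the higher calls were 35, 10 and 14, and with it as the sole 4 h library 0, 0 and 0. RN7SL1, the RNA of the signal recognition particle, had 54930, 62340 and 48290 CPM at 2 h and 48610, 77090 and 94340 CPM at 4 h. Its groups overlapped, and it did not pass the test (log2 change 0.41 ± 0.15 SE, edgeR adjusted p = 0.0507). With library 1 as the sole 4 h library its change was -0.18. It was called higher under 7 alternatives, among them the fit without library 1 at 4 h (log2 change 0.64, edgeR adjusted p = 4.11e-05) and DESeq2 (adjusted p = 0.0188). The scaRNAs SCARNA7, SCARNA13 and SCARNA9, guides of snRNA modification, were called higher and their 3 libraries at 4 h lay above those at 2 h. SCARNA7 had 67.5 to 75.3 CPM and then 86.1, 111 and 119 CPM, and SCARNA9 rose 1.41-fold. SCARNA13 had 76.4 CPM in library 1 at 4 h, just above its highest 2 h library at 74.5 CPM, against 118 and 123 CPM in the others. Of 21 snoRNA host genes, whose spliced products are targets of nonsense-mediated decay in many cases, 9 rose and 1 fell (NOP56, chosen after its values were seen), with SNHG6 and SNHG5 1.42-fold and 1.32-fold higher. With ribosomal protein scaling 0 of the 21 were higher and 4 were lower. Why library 1 differs was not tested.

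Few genes fell in the second interval alone. They included the cochaperone gene BAG3, the sirtuin gene SIRT6, the zinc finger gene ZNF711, and NELFA and LEO1, which encode parts of complexes that control elongation by RNA polymerase II. No list of elongation genes was described, so NELFA and LEO1 do not speak for such genes as a group. A gene was counted as late-only where it was lower at 4 h than at 2 h and lower at 4 h than at 0 h, was not called lower at 2 h than at 0 h, and had a second-interval change called more negative than the first-interval change, each at the same threshold. The difference between the intervals is (4 h minus 2 h) minus (2 h minus 0 h) on the log2 scale, and both intervals last 2 h. By the last test 68 genes had the more negative change in the second interval (0.394% of those tested) and 992 the more positive (5.75%). Of the 68, 56 were lower in the second interval, 18 had also been called lower in the first, and 27 met all conditions (0.156% of 17256). A chance deviation of the 2 h libraries would move the intervals in opposite directions, since both use them. The absence of a call in the first interval does not show that nothing was lost there.

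**Figure D3:**
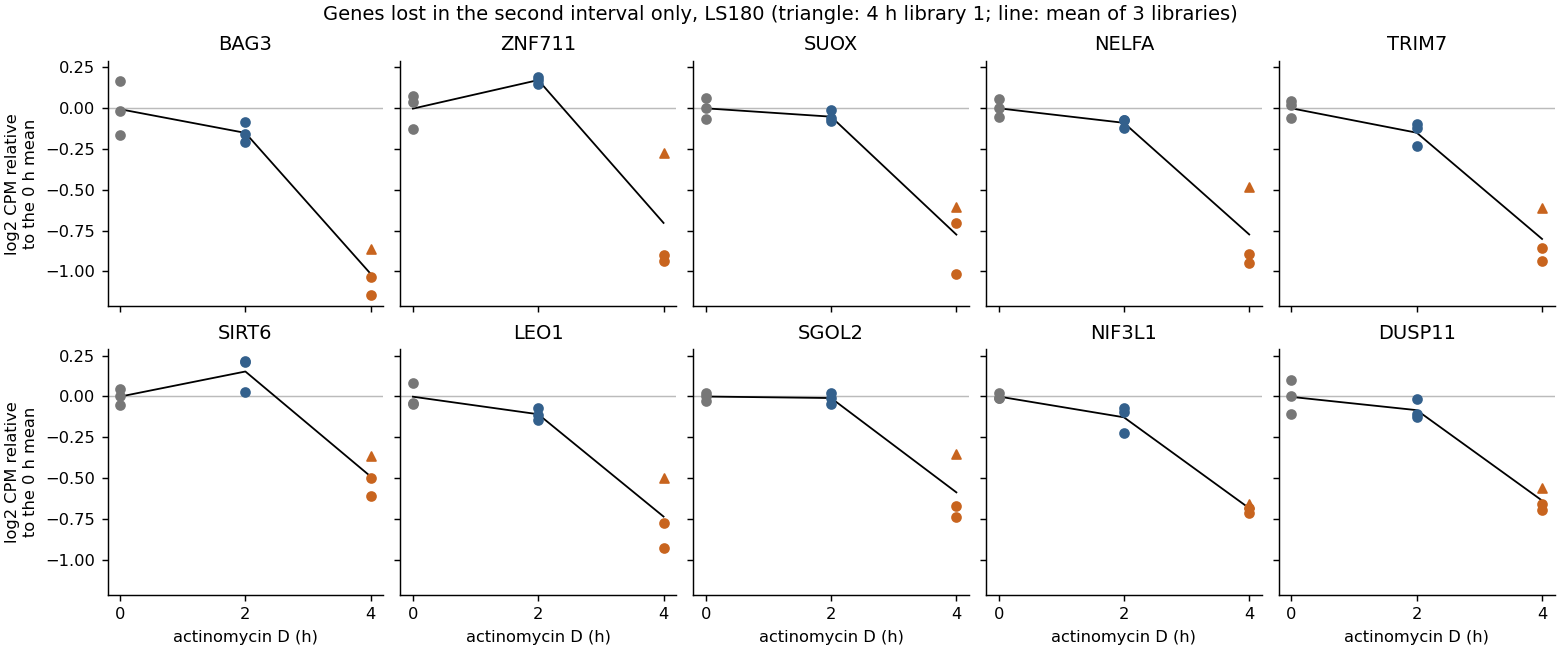
Log2 CPM relative to the mean at 0 h against hours of actinomycin D, for the 10 late-only genes with the largest second-interval fall among those averaging at least 5 CPM and not unnamed clones, in each LS180 library (points, with library 1 at 4 h as a triangle) and as the mean of 3 libraries (line). The first-interval changes of these genes run from -0.15 to 0.17, and library 1 is the highest of the 3 libraries at 4 h for 10 of the 10 genes.

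The second-interval log2 change of the 27 genes ran from -0.93 to -0.31 with a median of -0.45, and their first-interval change from -0.15 to 0.36, above 0 for 14 and below 0 for 13. None of the 27 was called higher in the first interval. All 27 had 4 h libraries below all 2 h libraries, as had 3075 of the 3200 genes called lower. Since the 27 were picked by that call, this is no separate support. SIRT6, a deacetylase of chromatin (ENSG00000077463, GRCh38 chromosome 19, 4174109 to 4182604), had 15.7, 15.3 and 14.7 CPM at 0 h, 15.5, 17.7 and 17.6 CPM at 2 h and 11.8, 9.98 and 10.8 CPM at 4 h. Its second-interval change was -0.64 ± 0.07 SE and the difference between the intervals -0.80 ± 0.12 SE (edgeR adjusted p = 0.000165). It was the gene that met the late-only conditions under all 26 alternatives. BAG3, a cochaperone of HSP70 induced by heat shock factor (ENSG00000151929, chromosome 10, 119651370 to 119677819), had 35.1, 30.9 and 27.9 CPM at 0 h and 28.0, 27.1 and 29.5 CPM at 2 h. It had 17.2, 15.3 and 14.1 CPM at 4 h, with a second-interval change of -0.86 ± 0.09 SE and an interval difference of -0.71 ± 0.15 SE (edgeR adjusted p = 0.00481). It met the conditions under 25 alternatives, the exception being ribosomal protein scaling.

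ZNF711, a zinc finger factor on the X chromosome, had 10.5 to 12.02 CPM at 0 h and 12.6 to 13.03 CPM at 2 h. At 4 h it had 9.43 CPM in library 1 and 6.11 and 5.94 CPM in the others. It met the conditions under 24 alternatives, the exceptions being ribosomal protein scaling and library 1 as the sole 4 h library. SUOX, the mitochondrial sulfite oxidase, had 14.99 to 16.4 CPM at 0 h, 14.9 to 15.6 CPM at 2 h and 7.77 to 10.3 CPM at 4 h. NIF3L1, whose product can bind transcription factors, had 35.4 to 36.2 CPM, 30.6 to 34.1 CPM and 21.8 to 22.7 CPM, with the 4 h libraries close together. DUSP11, a phosphatase that trims the 5′ ends of RNA, had 15.1 to 17.4, 14.9 to 16.1 and 10.04 to 11 CPM. These genes were late-only under 23, 23 and 22 of the 26 alternatives. For NIF3L1 and DUSP11 the first-interval change was -0.13 (edgeR adjusted p = 0.0601) and -0.08 (edgeR adjusted p = 0.368).

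NELFA, a subunit of the negative elongation factor that pauses RNA polymerase II, went from 33.6 to 36.3 CPM at 0 h and 32.1 to 33.2 CPM at 2 h to 25.01, 18.1 and 18.8 CPM at 4 h. LEO1, a subunit of the PAF1 elongation complex, had 41.5 to 45.5, 38.8 to 40.9 and 22.5 to 30.3 CPM. PAF1 itself, chosen after its values were seen, had a second-interval change of -0.42. TRIM7, a ubiquitin ligase, had 9.75 to 10.5, 8.67 to 9.51 and 5.31 to 6.67 CPM, and SGOL2, which protects centromeric cohesion, 36.3 to 37.6, 35.9 to 37.6 and 22.2 to 28.9 CPM. Library 1 was the highest at 4 h for all of these genes. NELFA, LEO1, TRIM7 and SGOL2 were late-only under 17, 15, 13 and 14 of the 26 alternatives, and their interval differences had edgeR adjusted p values of 0.0261, 0.0499, 0.0427 and 0.0458. In all, 18 of the 27 genes were called lower in the second interval under each of the 27 alternatives fitted. The genes that met the late-only conditions least often, RNPC3, ACD and VIPAS39, all chosen after their values were seen, did so under 4 of the 26.

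The number of late-only genes moved with most choices of the analysis. It was 187 with DESeq2, 205 without a filter on low counts, and 30 to 149 when 1 HCT116 library was left out, although those libraries enter only through the shared spread, scaling and filter. It was 27 with all libraries, 467 without library 1 at 4 h and 25 with that library as the sole 4 h library. Of the 27 genes 26 were kept without library 1, and 10 were kept with it as the sole 4 h library. With ribosomal protein scaling 3 genes were late-only, 1 of them among the 27, and with total library size 9, 7 of them among the 27. Under ribosomal protein scaling the first-interval changes were lower by 0.23 for the median gene.

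**Figure D4:**
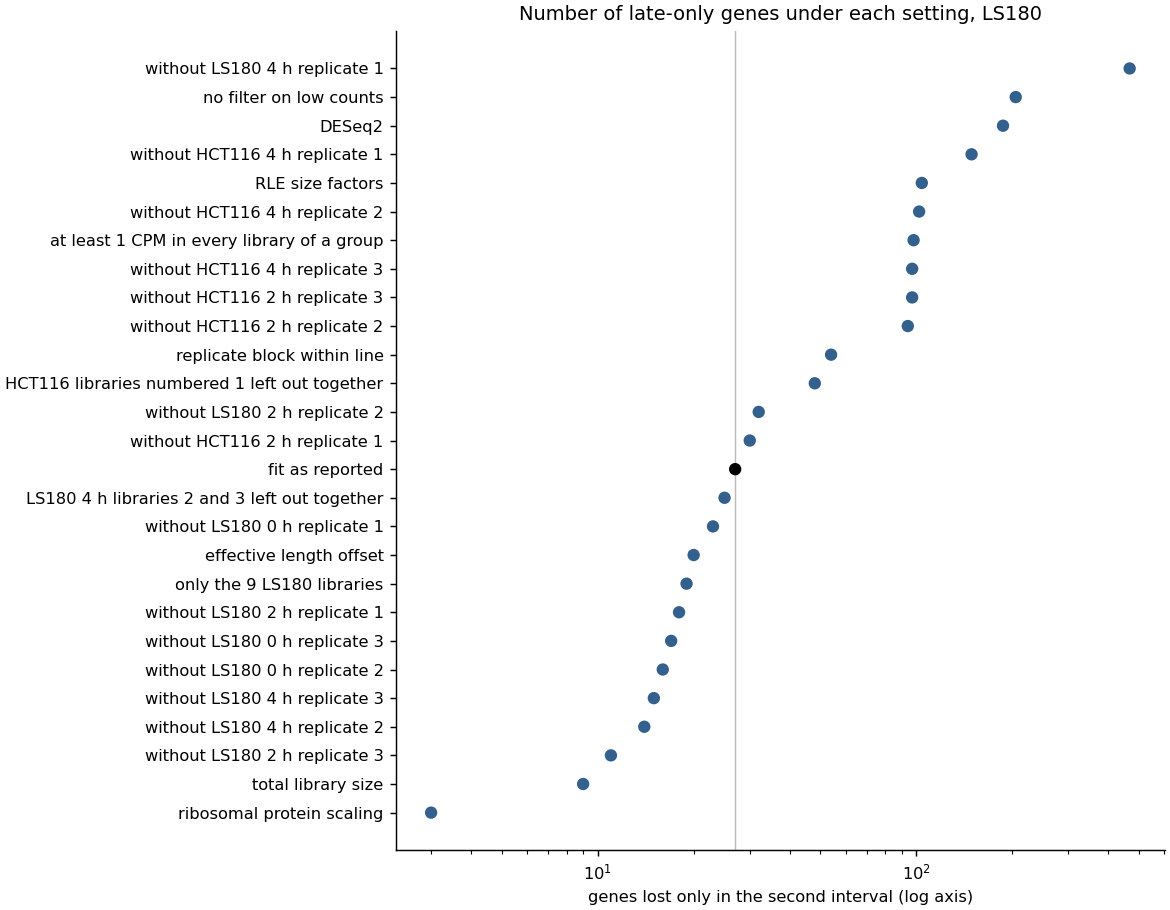
Number of genes meeting the late-only conditions (log axis) with the fit as reported (black, 27 genes) and under each alternative (blue). The counts run from 3 with ribosomal protein scaling to 467 without LS180 library 1 at 4 h.

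Polyubiquitin and heat shock genes also appeared among the 68 genes with the more negative second interval, 4 of 29 in the list of chaperones and polyubiquitin. In the first interval 17 of the 29 were called higher and 4 lower, against 2329 and 4121 of all 17256 genes. The median log2 change of the list was 0.21 in the first interval and 0.04 in the second, and 1 of the 29 was late-only. A negative difference is therefore not a late fall in every case. BAG3 and UBB are described above, and UBB was already lower at 2 h than at 0 h (log2 change -0.27). DNAJB4, an HSP40 cochaperone, and CHORDC1, an HSP90 cochaperone, both chosen after their values were seen, had first-interval changes of 0.36 and 0.46 and second-interval changes of -0.30 and 0.02. CXXC5, a zinc finger regulator of Wnt signalling and also chosen after its values were seen, had changes of -0.48 and then -1.61.

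The 3016 protein-coding genes lower at 4 h had a median effective length of 2502 bases and the 1898 higher ones 1639 bases, against 2152 bases over all 13811 coding genes tested. Their median level was 16.1 and 75.9 CPM. The third codon base was G or C in a median of 62.1% of codons in the lower genes, 72.1% in those lower at least 2-fold, 51.6% in the higher genes and 59.9% overall. A 3′ UTR with the nonamer TTATTTATT was found for 9.65% of lower genes, 5.80% of higher genes and 8.20% of all. Among coding genes with the more positive second interval the share was 18.3%, and 985 of the 992 genes of that class, noncoding ones included, had been called lower in the first interval. It was 0 of the 25 coding late-only genes, whose median 3′ UTR was 508 bases, against 1034 bases overall. These are descriptions of classes that share libraries and length-dependent counts, and no test was made.

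In HCT116 the same interval gave smaller late changes for several of these genes. UBB, called different under every alternative tried, fell in LS180 and did not pass the test in HCT116. The question of whether the late change depends on the line was tested as the difference of the 4 h against 2 h change between the lines. It was more negative in LS180 for 44 genes (0.255% of those tested) and more positive for 7 (0.0406%). UBB had 1290.0 ± 70.4 CPM at 2 h and 1320.0 ± 36.0 CPM at 4 h in HCT116 (SD, n = 3), a log2 change of 0.03 ± 0.06 SE, against -0.85 ± 0.06 SE in LS180. The difference was -0.88 ± 0.08 SE (edgeR adjusted p = 6.2e-05), and it was called under all 22 alternatives.

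AURKA fell by 1.03 in LS180 and by 0.30 in HCT116, and BAG3 had -0.86 in LS180 and -0.23 ± 0.08 SE in HCT116, where it did not pass the test. KIF18A, PPP1R15B and SIRT6 had differences of -0.50, -0.48 and -0.48. These 5 differences were called under 5 to 9 of the 22 alternatives, were negative in all 22, and were not called with library 1 as the sole LS180 library at 4 h. DPF2, a subunit of the BAF chromatin remodeller, and BCOR, a corepressor of BCL6, were both chosen after their values were seen. They changed by -1.06 and -1.27 in LS180 and had -0.13 and 0.02 in HCT116. BCOR had already gone from 13.35 CPM at 0 h to 2.568 CPM at 2 h in HCT116, with 2.593 CPM at 4 h. In LS180 BCOR had 23.36 CPM at 0 h and 7.931 CPM at 2 h. DPF2 had 46.13 CPM at 0 h and 50.84 CPM at 2 h in HCT116. In the other direction DUSP6, a phosphatase of ERK, and IRF1, an interferon-response factor, also chosen after their values were seen, had -0.36 and -0.24 in LS180 and fell by 1.41 and 1.06 in HCT116. Their 2 h levels in LS180 were 2.42 and 1.97 CPM, from 67.2 and 12.9 CPM at 0 h. With total library size or ribosomal protein scaling 0 genes were called in this direction, so the calls of DUSP6 and IRF1 were lost.

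Of the 27 late-only genes 26 had a negative late change in HCT116 and 13 were called lower there, against 11% of all genes tested. The difference between the lines was called for 2 of the 27, BAG3 and SIRT6. The count of 44 moved with many choices. It was 393 with DESeq2, 435 without a filter, 3 with ribosomal protein scaling and 10 to 25 on leaving out each library in turn other than library 1 of either line at 4 h. For library 1 of LS180 at 4 h there were 1046 genes more negative in LS180 and 328 more positive without it, and 6 and 1 with it as the sole 4 h library.

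**Figure D5:**
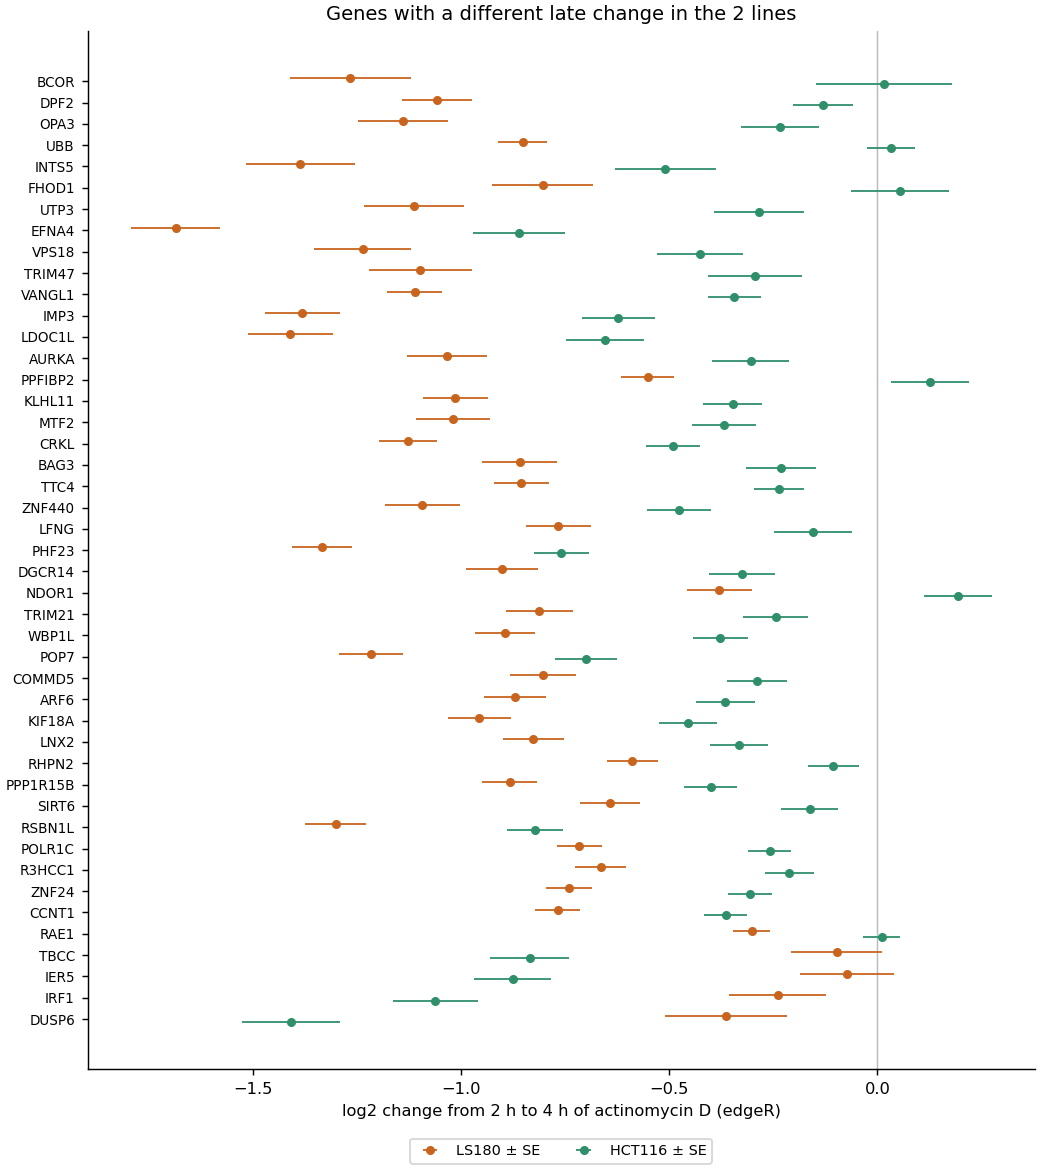
Log2 change from 2 h to 4 h of actinomycin D with its SE (edgeR), in LS180 (orange) and HCT116 (green), for genes averaging at least 5 CPM over the 9 LS180 libraries whose change differed between the lines. UBB fell by 0.85 in LS180 and had 0.03 in HCT116, and the 4 genes at the bottom changed less in LS180.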

How the data were processed

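Total RNA was isolated on columns and made into stranded libraries, per the labels' protocols. The submitters' processing notes name cutadapt, STAR 2.7, RSEM 1.3.1 and the hg19 build, without their order or settings. The deposited tables hold RSEM expected counts per gene, in which the authors' tool divides reads that fit more than 1 gene. They also hold effective lengths, used in an alternative, and TPM values deposited by the authors, used in no test.

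Expected counts were rounded and tested with edgeR 4.0.16 in R 4.3.3 (TMM, filterByExpr, two-sided quasi-likelihood tests) on 18 actinomycin D libraries in 6 groups, with 12 residual degrees of freedom. P-values were adjusted by Benjamini-Hochberg over 17256 genes. The standard error was the absolute log2 change divided by the square root of F. The fits were tested on simulated data. Members, 44 gene lists and tests were chosen with earlier results of these data known. Named were FOXA1 to FOXA3, STAU1, STAU2 and, of genes averaging at least 5 CPM without pseudogenes and unnamed clones and with groups that did not overlap, 10 each of the largest falls, rises and late-only falls, plus up to 4 members per list by adjusted p. Positions, transcripts and 3′ UTRs came from GENCODE 29 (GRCh38), matched on the identifier for 16690 tested genes. Alternatives were RLE factors, total library size, ribosomal protein scaling, DESeq2 1.42.0, other filters, a length offset, a replicate block, subsets of libraries and each library left out. The fits without HCT116 libraries for the interval results were added after seeing the data. Libraries of the siRNA experiment were not used here. Some results are not reported here.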

Additional observations from a re-analysis of the deposited data

Results flagged for a closer look

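The late change differed between LS180 and HCT116 with TMM scaling, by the test of the difference itself, for 10 genes described above. The LS180 change minus that in HCT116, on the log2 scale, was -0.63 for BAG3, -0.48 for SIRT6, -0.50 for KIF18A, -0.73 for AURKA, -0.48 for PPP1R15B and -0.88 for UBB. For the genes chosen after their values were seen it was -1.28 for BCOR, -0.93 for DPF2, 1.04 for DUSP6 and 0.82 for IRF1. DUSP6 and IRF1 were not called with total library size or ribosomal protein scaling. For the first 6 genes, without LS180 library 1 at 4 h, the differences were -0.70, -0.53, -0.61, -0.77, -0.58 and -0.87, with edgeR adjusted p values of 0.0022, 0.00154, 0.000162, 0.00395, 2.25e-05 and 8.51e-06. With that library as the sole 4 h library they were -0.47, -0.34, -0.28, -0.62, -0.27 and -0.87, and of these 6 genes UBB alone was called (edgeR adjusted p = 0.00132).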

How the results depend on the processing

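Genes lower at 4 h than at 2 h were 6608 with ribosomal protein scaling, 1179 with library 1 as the sole 4 h library and 2550 to 3596 with each library left out. Genes higher were 241 with total library size, 41 with ribosomal protein scaling, 1403 with the 6 libraries compared alone, 162 with library 1 as the sole 4 h library and 808 to 2959 with each left out. Genes more negative in the second interval were 347 with RLE factors, 26 with total library size, 13 with ribosomal protein scaling, 741 with DESeq2, 559 without a filter, 343 with a minimum of 1 CPM, 45 with the 9 LS180 libraries, 289 with library 1 as the sole 4 h library, 135 without the HCT116 libraries numbered 1 and 20 to 1317 with each left out. Genes more positive there were 586, 541 and 582 to 1005 with total library size, ribosomal protein scaling and each library left out. Late-only genes were 104 with RLE factors, 9 with total library size, 3 with ribosomal protein scaling, 187 with DESeq2, 205 without a filter, 98 with a minimum of 1 CPM, 48 without the HCT116 libraries numbered 1 and 11 to 467 with each left out.

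Genes more negative in LS180 than in HCT116 were 68 with RLE factors, 6 with total library size, 3 with ribosomal protein scaling, 393 with DESeq2, 435 without a filter, 28 with a minimum of 1 CPM, 18 with the length offset, 6 with library 1 as the sole 4 h library, 69 without the HCT116 libraries numbered 1 and 10 to 1046 with each left out. Genes more positive were 0 with either total library size or ribosomal protein scaling in edgeR (433 at an unadjusted p under 0.05 with TMM), 32 with DESeq2, 188 without a filter, 1 with library 1 as the sole 4 h library, 45 without the HCT116 libraries numbered 1 and 1 to 328 with each left out. With the replicate block 135 genes were more negative in the second interval, 54 late-only, and 147 and 23 more negative and more positive in LS180. In their deviations from the group means, same-numbered LS180 libraries had correlations of -0.31 to 0.24. Differently numbered ones had -0.24 to 0.27. With 3 libraries per group this does not settle whether the numbers pair the samples. Where these counts moved, the cause was not tested.

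Of 1566 values of the 87 named genes, 1485 kept their direction and their side of the threshold. With total library size STAU1 had -0.10 and STAU2 -0.00955, and with ribosomal protein scaling STAU1 had -0.26, STAU2 -0.17, SMG1 -0.00463 and SSR1 -0.068. RN7SL1 had -0.18 with library 1 as the sole 4 h library.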
